A study of Mus musculus with 4 samples.

Results

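Endothelin receptor type B (Ednrb), the other genes of the endothelin system and genes of melanocytes and neural crest were followed in the organ of Corti, the hearing epithelium within the cochlea, after loss of the T-box transcription factor gene Tbx2. The set held 10 genes, Ednrb, Ednra, Edn1, Edn3, Ece1, Dct, Tyrp1, Mitf, Kit and Sox10. They were taken by name, with every probe that the array files give them, and came to 13 of the 39429 probes on the arrays. The list was chosen by the log2 ratios of Ednrb, both of whose probes were lower in the mutant, and by what is known of its pathway and cells, so the genotype difference of Ednrb is given here as a description without a test. Of the 13 probes, 12 probes of 9 genes were bright enough to be tested, among 28104 tested probes in all. Tyrp1 was the gene that was not.

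Endothelins are short peptides cut from a precursor by endothelin converting enzymes such as ECE1. EDNRA and EDNRB are the G protein-coupled receptors for them, and EDN3 acting on EDNRB is needed by neural crest cells that become melanocytes and enteric neurons. In the cochlea, melanocytes form the intermediate cells of the stria vascularis, which keep up the endocochlear potential, and loss of EDNRB function in mouse and human leads to pigment defects, aganglionic megacolon and deafness.

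RNA was compared on 4 two-colour arrays, each of which held RNA of pooled Sox2-Tbx2LOF embryos in one dye and of pooled control embryos in the other, always of matching sex, so that n = 4 pools per genotype. Sox2-Tbx2LOF embryos carried Tbx2(fl/fl), a floxed allele on both chromosomes, and Sox2(creERT2), a tamoxifen-inducible recombinase driven by the Sox2 locus, and per the study's methods also a reporter, R26 mTmG/+. Per the study, hair and supporting cells still expressed SOX2 at E16.5, and recombination reached hair cells as well. Controls were labelled Tbx2(fl/n.d.), with the other Tbx2 allele not determined, and were without Cre per the methods. All embryos were of the NMRI strain, their dams had received 4 mg of tamoxifen at E16.5 and, per the methods, progesterone, and the basal part of the organ of Corti was dissected at E18.5. Each pool joined the organs of several embryos, and the spiral ligament and spiral ganglia had been removed. Arrays 1 and 2 held female pools, and arrays 3 and 4 held male pools. Arrays 1 and 3 carried the Sox2-Tbx2LOF RNA in Cy3, and arrays 2 and 4 carried it in Cy5. The number of arrays limits the precision of all values.

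Tbx2 itself was at log2 ratios of Sox2-Tbx2LOF over control of -0.06, -0.24, -0.02 and -0.30 on arrays 1 to 4, a mean of -0.15 ± 0.14 (SD, n = 4), which did not pass the test (limma, adjusted p = 0.313). Its probe starts at base 3502 of the transcript, and the sources used here do not say whether that lies in the deleted part, so this probe may check nothing. The study reports from immunofluorescence that recombined hair and supporting cells had lost TBX2 protein at E18.5 under the same tamoxifen timing. Sox2, the locus of the recombinase and a gene of supporting cells, was above 0 on every array, with a mean of 0.23 ± 0.09 (SD, n = 4; limma, adjusted p = 0.0872). Of the tissue markers, all 6 hair cell genes and all 9 supporting cell genes looked for were bright enough to be tested, and so were 8 of 8 genes of Schwann cells and glia, 8 of 8 of endothelium and 8 of 9 of the stria vascularis. RNA of genes that mark these cell types was thus present beside that of the sensory epithelium. In such bulk RNA, fewer cells of a type and less RNA per cell cannot be told apart.

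Ednrb had 2 probes without common bases, 6326 bases apart on chromosome 14. The first, A_55_P2089710, starts at base 1101 of transcript NM_001276296 (mm9, chr14:104220870-104220929, minus strand). The second, A_52_P577662, starts at base 3293 of NM_007904 (mm9, chr14:104214484-104214543, minus strand), toward the 3′ end. Exons are not given for either probe. The first probe is shown because the Ednrb result rests on it together with the second, and because it reads a part of the transcript well before the 3′ end.

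Ednrb probe A_55_P2089710: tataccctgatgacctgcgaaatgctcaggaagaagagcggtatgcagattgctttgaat

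On the first Ednrb probe the log2 level, which is the normalized brightness of a probe in one pool and has no meaning between probes, was 11.23, 11.22, 11.19 and 10.88 in control pools 1 to 4. The Sox2-Tbx2LOF pools of the same arrays were at 10.68, 10.47, 10.06 and 10.03. Every Sox2-Tbx2LOF pool was below every control pool. The log2 ratios were -0.55, -0.74, -1.13 and -0.85, with a mean of -0.82 ± 0.24 (SD, n = 4), so that the control level was 1.77-fold that of Sox2-Tbx2LOF.

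On the second Ednrb probe the control pools were at log2 levels of 13.94, 14.05, 14.26 and 14.32, and the Sox2-Tbx2LOF pools at 13.04, 13.44, 13.28 and 13.38. Again the groups did not overlap. The log2 ratios were -0.90, -0.61, -0.98 and -0.93, with a mean of -0.86 ± 0.17 (SD, n = 4), a control level 1.81-fold that of Sox2-Tbx2LOF. The means of both probes thus lay closer together than the spread of either over the arrays. The 4 spots of a probe on an array had an SD of at most 0.13 for the first probe and 0.09 for the second.

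A probe was called at an adjusted p under 0.05 in limma and a fold of at least 1.5, which held for 0.249% of all tested probes, 0.128% as lower in Sox2-Tbx2LOF. The 2 Ednrb probes were among these, out of 12 tested probes of the gene set, but this contrast chose the set, so that the call is no test of Ednrb and nothing is read from the share. Among probes under that adjusted p, the smallest absolute log2 ratio inside the fold was 0.59 and the largest outside it 0.58. Levels that did not overlap between the genotypes, lower in Sox2-Tbx2LOF, were found for 1.32% of tested probes. In a fit that did not pair the pools of an array, only the second Ednrb probe was called, and in the fold changes of the deposited series matrix neither was.

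Both dye orientations and both sexes gave lower Ednrb in Sox2-Tbx2LOF. With the mutant RNA in Cy3 the first probe had a mean log2 ratio of -0.84 and with the mutant RNA in Cy5 of -0.80, and the second of -0.94 and -0.77. Female arrays averaged -0.65 and male arrays -0.99 on the first probe, and -0.75 and -0.96 on the second. The difference between the sexes did not pass the test on either probe (limma, adjusted p = 0.9999 for both).

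**Figure D1:**
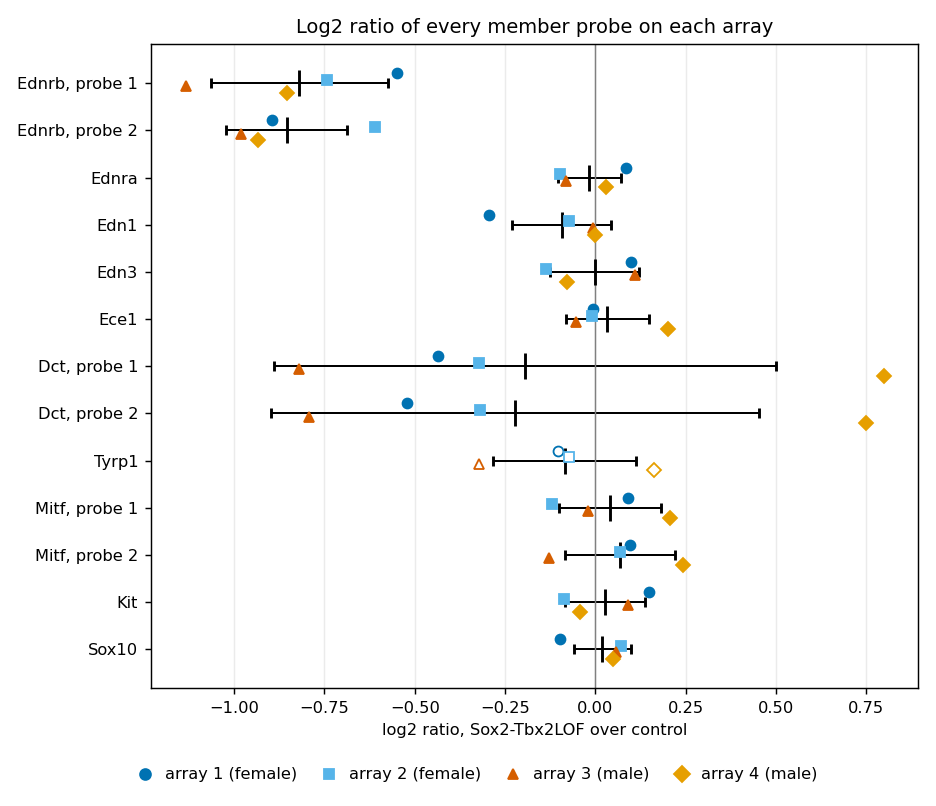
Log2 ratio of Sox2-Tbx2LOF over control (x axis) for each of the 13 probes (rows), with 1 symbol per array, the mean as a vertical bar and the SD over 4 arrays as a horizontal bar. Open symbols mark Tyrp1, which was not well above background. Both Ednrb probes lie between -1.13 and -0.55 on every array, and the other probes spread around 0, the 2 Dct probes widely.

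The second endothelin receptor, Ednra, was close to 0. Its probe (mm9, chr8:80186985-80187044) had log2 ratios of 0.09, -0.10, -0.08 and 0.03, with a mean of -0.02 ± 0.09 (SD, n = 4) and a 95% interval of the fitted log2 ratio from -0.14 to 0.10 (limma, adjusted p = 0.9996). Control levels from 13.97 to 14.15 and Sox2-Tbx2LOF levels from 13.89 to 14.14 overlapped.

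Of the ligands, Edn1 (mm9, chr13:42403101-42403160), the endothelin made mainly by endothelium and epithelia, was at -0.30, -0.07, -0.01 and -0.001, a mean of -0.09 ± 0.14 (SD, n = 4) with an interval from -0.23 to 0.04. The ratio was below 0 on all 4 arrays, as for 4.58% of all tested probes, but on arrays 3 and 4 by very little, and it did not pass the test (limma, adjusted p = 0.9996). Edn3 (mm9, chr2:174608971-174609030), the ligand that acts on EDNRB in melanoblasts, was at 0.10, -0.14, 0.11 and -0.08. Its mean was -0.002 ± 0.12 (SD, n = 4), with an interval from -0.11 to 0.10 and an adjusted p of 0.9996 in limma. The Edn3 probe was well above background on all 4 arrays but dim. Its spot signals averaged 69 to 92 in Cy3, over median backgrounds of 31 to 33. In Cy5 they averaged 106 to 134, over 68 to 80. By the scanner software's log ratio Edn3 was at -0.03. The signs of Edn3 went with the dye orientation, higher in Sox2-Tbx2LOF where that RNA was in Cy3 (a mean of 0.10) and lower where it was in Cy5 (a mean of -0.11).

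Ece1 (mm9, chr4:137519606-137519665), whose product releases active endothelins, was at -0.01, -0.01, -0.05 and 0.20, a mean of 0.03 ± 0.11 (SD, n = 4) with an interval from -0.09 to 0.15 (limma, adjusted p = 0.9996). Array 4 alone was above 0.

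The other genes of the pathway were read from a list. Its 15 genes were further ligands and peptidases and the G proteins, phospholipases, protein kinase C and calcium channels through which the receptors act. Of 14 genes tested, 6 were below and 8 above 0, with a median log2 ratio of 0.006 against 0.003 over all 18226 tested genes. None was called or had an adjusted p under 0.05 in limma, and 3 had an unadjusted p under 0.05. The lowest was Plcb3, a phospholipase C, at -0.07 ± 0.21 (SD, n = 4; limma, adjusted p = 0.9996). The highest was Itpr3, a receptor for inositol trisphosphate in the endoplasmic reticulum, at 0.19 ± 0.30 (SD, n = 4; limma, adjusted p = 0.243).

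Dct, which encodes dopachrome tautomerase, an enzyme of melanin synthesis and an early marker of the melanocyte lineage, differed in direction between arrays. Its first probe, A_55_P1961466 (mm9, chr14:118412029-118412088), was at log2 levels of 11.84, 12.27, 12.44 and 11.18 in control pools 1 to 4, and at 11.40, 11.95, 11.62 and 11.98 in the Sox2-Tbx2LOF pools. Control pool 4 was below all other pools, and the genotypes overlapped. The log2 ratios were -0.44, -0.32, -0.82 and 0.80, a mean of -0.20 ± 0.70 (SD, n = 4) with an interval from -0.54 to 0.15 (limma, adjusted p = 0.9996).

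The second Dct probe, A_55_P2003053 (mm9, chr14:118412013-118412072), shares 44 bases with the first and is no independent measurement. Its log2 ratios were -0.52, -0.32, -0.79 and 0.75, with a mean of -0.22 ± 0.68 (SD, n = 4; limma, adjusted p = 0.9996). Dct therefore showed no difference that held over all arrays, and its value turned on single arrays. It also differed by dye orientation. With the mutant RNA in Cy3 the probes averaged -0.63 and -0.66, and with it in Cy5 0.24 and 0.21. Arrays 2 and 4, both with that RNA in Cy5, differed in sign. Without array 4 the 2 probes were at -0.48 and -0.49 with adjusted p-values of 0.00257 and 0.00102 in limma, under the fold needed for a call. Without array 2 they were at 0.08 and 0.05.

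On array 4, where Dct was higher in Sox2-Tbx2LOF, both Ednrb probes were lower (-0.85 and -0.93), and on the other 3 arrays both genes were lower. The 95% intervals given for Dct come from the fit across all probes and are narrower than the SD of 0.70 over the arrays would give. In that fit the term for the dye orientation takes up part of the spread. The spread of each gene is also drawn toward that of the others. For the first Dct probe the standard error was 0.15 with the dye term and 0.22 without it.

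**Figure D2:**
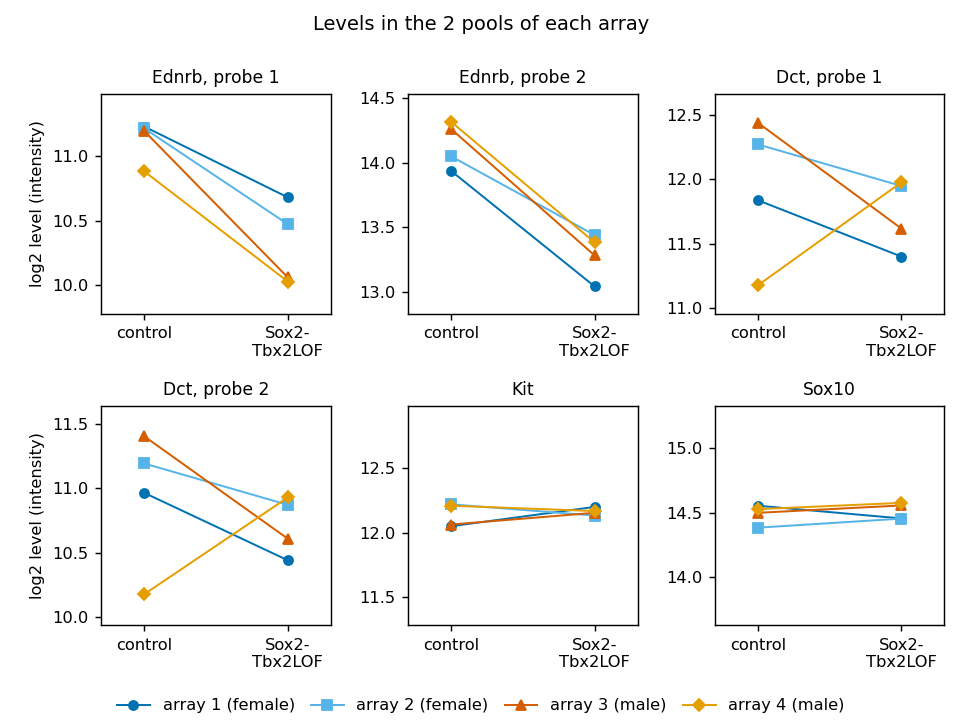
Log2 level (y axis, each panel spanning the same log2 distance) in the control pool and the Sox2-Tbx2LOF pool of each array, joined by a line, for the probes of Ednrb, Dct, Kit and Sox10. The lines of Ednrb fall on all 4 arrays, those of Dct fall on arrays 1 to 3 and rise on array 4, and those of Kit and Sox10 are nearly flat.

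Tyrp1 (mm9, chr4:80497524-80497583), a melanosomal protein that follows Dct in the pigment pathway, was not well above background in any of the 8 pools. Its ratios of -0.10, -0.07, -0.32 and 0.16 are given as read, and no fold is drawn from them.

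Mitf, the transcription factor that directs melanocyte development, had 2 probes, which start 2728 bases apart in transcript NM_001113198. The first (mm9, chr6:97968501-97968560) was at 0.09, -0.12, -0.02 and 0.21, a mean of 0.04 ± 0.14 (SD, n = 4) with an interval from -0.10 to 0.18. The second (mm9, chr6:97971229-97971288) was at 0.10, 0.07, -0.13 and 0.24, a mean of 0.07 ± 0.15 (SD, n = 4) with an interval from -0.06 to 0.20. Neither passed the test (limma, adjusted p = 0.9996 for both), and the levels of the genotypes overlapped on both. Mitf transcripts are also made outside the melanocyte lineage.

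Kit (mm9, chr5:76052394-76052453), the receptor tyrosine kinase for KIT ligand on which melanoblasts depend, was at 0.15, -0.09, 0.09 and -0.04, with a mean of 0.03 ± 0.11 (SD, n = 4) and an interval from -0.08 to 0.14 (limma, adjusted p = 0.9996). Its signs also went with the dye orientation.

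Sox10 (mm9, chr15:78985518-78985577) encodes a transcription factor of the neural crest, of glia and melanocytes, and also of otic epithelium. It was at -0.10, 0.07, 0.06 and 0.05, with a mean of 0.02 ± 0.08 (SD, n = 4) and an interval from -0.09 to 0.13 (limma, adjusted p = 0.9996). Control levels from 14.39 to 14.56 overlapped Sox2-Tbx2LOF levels from 14.46 to 14.58.

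Altogether 10 probes of genes other than Ednrb were tested, 5 below and 5 above 0. None was called, and 0 had an unadjusted p under 0.05 in limma, where 7.12% of all tested probes did. For Ednra, Kit and Sox10 the interval of the log2 ratio stayed within 0.14 of 0 on either side, while that of Dct reached -0.55. The interval of Edn3 also stayed within 0.14 of 0, but its probe was dim, and no absence of a change is read from it.

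A list of 12 further pigment genes was read for melanocytes. Of 11 tested, Gpnmb was well above background in 3 control pools but in no Sox2-Tbx2LOF pool, so that it passed the filter through the controls alone, and no fold is given for it. Of the other 10, counted apart after the values were seen, 6 were below and 4 above 0, where 47.6% of all tested genes were below, with a median log2 ratio of -0.02. With Gpnmb the median was also -0.02, and leaving out 1 array moved it between -0.10, without array 4, and 0.04, without array 2. These fits kept the term for the dye orientation, which gave more weight to the single array left in one orientation. None was called. Oca2, which encodes a melanosomal membrane transport protein, had an adjusted p under 0.05, as had 0.986% of all tested probes, and was higher in Sox2-Tbx2LOF, at 0.31, 0.42, 0.16 and 0.26, a mean of 0.29 ± 0.11 (SD, n = 4; limma, adjusted p = 0.0496). With the log ratio of the scanner software this adjusted p was 0.0629. The lowest was Pmel, which builds the fibrils of the melanosome, at -0.49, -0.21, -0.37 and 0.08, a mean of -0.25 ± 0.25 (SD, n = 4; limma, adjusted p = 0.144). By the scanner software's log ratio Pmel was at -0.28, and Gpr143, a melanosomal receptor, was lower, at -0.31 (limma, adjusted p = 0.224 and 0.332). Gpnmb is left out of this order, because it passed the filter through the controls alone.

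The signs of Dct, lower on arrays 1 to 3 and higher on array 4, were also those of Tyr, Pmel, Mlana and Slc45a2, 4 of the 10 pigment genes without Gpnmb, where 3.75% of all tested genes had them. This pattern was chosen after the values were seen. None of the 11 was lower on all 4 arrays, and Oca2 was higher on all 4, as were 4.44% of all tested probes. Over all 11 genes, and so with Gpnmb, the list medians on arrays 1 to 4 were -0.09, -0.07, -0.06 and 0.10. Summed over the same 11 genes, the log2 level lay between 13.89 and 14.21 in the Sox2-Tbx2LOF pools and between 13.77 and 14.09 in the control pools. Of the defining pigment markers, Tyrp1 and Mc1r were not well above background, and Tyr, Pmel, Mlana and Dct were.

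**Figure D3:**
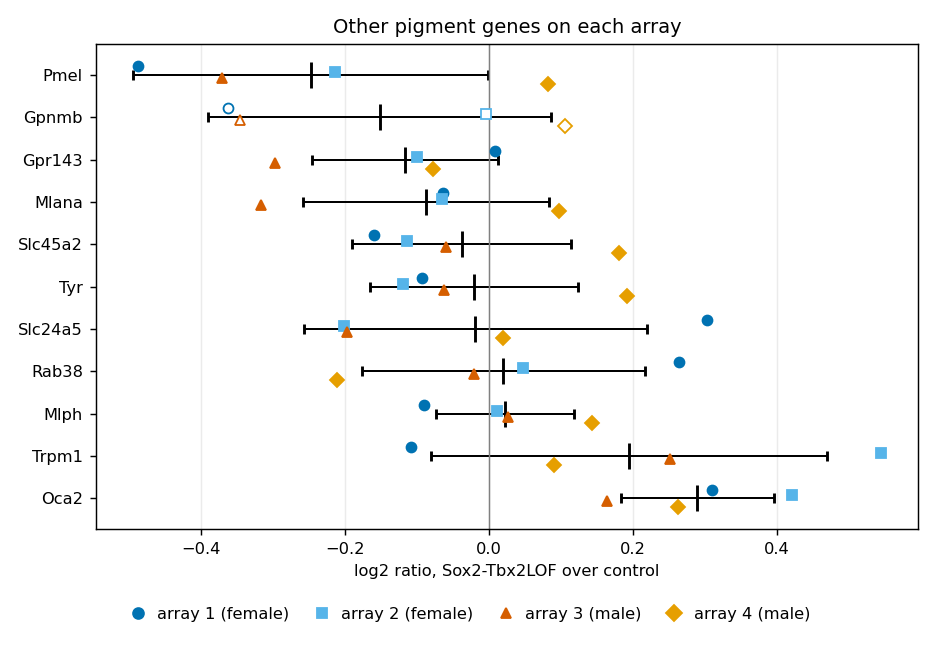
Log2 ratio of Sox2-Tbx2LOF over control (x axis) of the 11 tested genes of the pigment list (rows, in order of the mean), with 1 symbol per array, the mean as a vertical bar and the SD over 4 arrays as a horizontal bar. Open symbols mark Gpnmb, which was not well above background in Sox2-Tbx2LOF. Pmel is lowest at -0.25 and Oca2 highest at 0.29. On array 4, 9 of the 11 genes, Gpnmb included, are above 0, where 45.6% of all tested genes are.

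The 8 regulators of melanoblasts had 7 members tested, of which 4 were below and 3 above 0, with a median of -0.02 and none called. Pax3, a transcription factor of neural crest that works with SOX10 on Mitf, was lowest, at -0.16, -0.32, -0.39 and -0.24 with a mean of -0.28 ± 0.10 (SD, n = 4; limma, adjusted p = 0.0680). Its ratio was below 0 on all 4 arrays, as for 4.58% of all tested probes. For this dim probe the log ratio of the scanner software gave -0.72 with an adjusted p of 0.0150 in limma, past the rule for a call. Without background correction Pax3 was at -0.33 (limma, adjusted p = 0.0335), under the fold for a call. With median centring it was at -0.28 (limma, adjusted p = 0.0953). Tfap2a, a transcription factor of the early neural crest, was highest at 0.11 ± 0.08 (SD, n = 4; limma, adjusted p = 0.811).

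Other cell types in or near the cochlear duct were read by 5 further lists, of which no gene was called or had an adjusted p under 0.05. Schwann cell and glia genes had 2 of 8 below 0 and a median of 0.03, from Foxd3 at -0.05 to Pou3f1 at 0.25. Their summed log2 level ran from 16.19 to 16.43 in Sox2-Tbx2LOF and from 16.16 to 16.496 in controls. Stria vascularis genes had 4 of 8 below 0 and a median of -0.01, from Kcnj13 at -0.19 to Slc12a2, a chloride cotransporter of marginal cells, at 0.08, with summed levels from 16.17 to 16.35 and from 16.18 to 16.29. Kcne1, a potassium channel subunit of marginal cells, was not well above background in any pool.

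Endothelium genes were above 0 in 8 of 8 cases, where 52.4% of all tested genes were, with a median of 0.04 and none past the test, from Emcn at 0.005 to Cldn5, a tight junction protein, at 0.21 ± 0.08 (SD, n = 4; limma, adjusted p = 0.145). Their summed level was 15.00 to 15.06 in Sox2-Tbx2LOF and 14.92 to 14.97 in controls. Genes of pericytes and smooth muscle had 2 of 7 below 0 and a median of 0.01, from Cspg4 at -0.05 to Abcc9 at 0.14, with summed levels of 14.55 to 14.69 and 14.51 to 14.70. Otic mesenchyme genes had 1 of 5 below 0 and a median of 0.07, from Tbx18 at -0.05 to Col1a1, a collagen chain, at 0.34 ± 0.23 (SD, n = 4; limma, adjusted p = 0.0608), with summed levels of 16.10 to 16.32 and 15.90 to 16.16.

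In the sensory epithelium, Otof, which encodes otoferlin of the hair cell synapse, was lower in Sox2-Tbx2LOF at -0.38, -0.55, -0.15 and -0.54, with a mean of -0.40 ± 0.19 (SD, n = 4; limma, adjusted p = 0.00985), under the fold for a call. The other 5 hair cell genes lay between -0.24 and 0.10, and the list had a median of 0.01. Supporting cell genes had 2 of 9 below 0 and a median of 0.08, from Gjb2 at -0.14 to Sox2 at 0.23. Leaving out 1 array moved this median between 0.01, without array 3, and 0.10. Under such fits the medians of glia, endothelium and supporting cell genes stayed above 0, and that of every other list took both signs. Over all 10 lists, 20 of 83 tested genes had an unadjusted p under 0.05 and 2 an adjusted p under 0.05, beside 8.33% and 1.25% of all tested genes, and 0 were called. The part of any of these cell types in the lower Ednrb level was not tested.

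**Figure D4:**
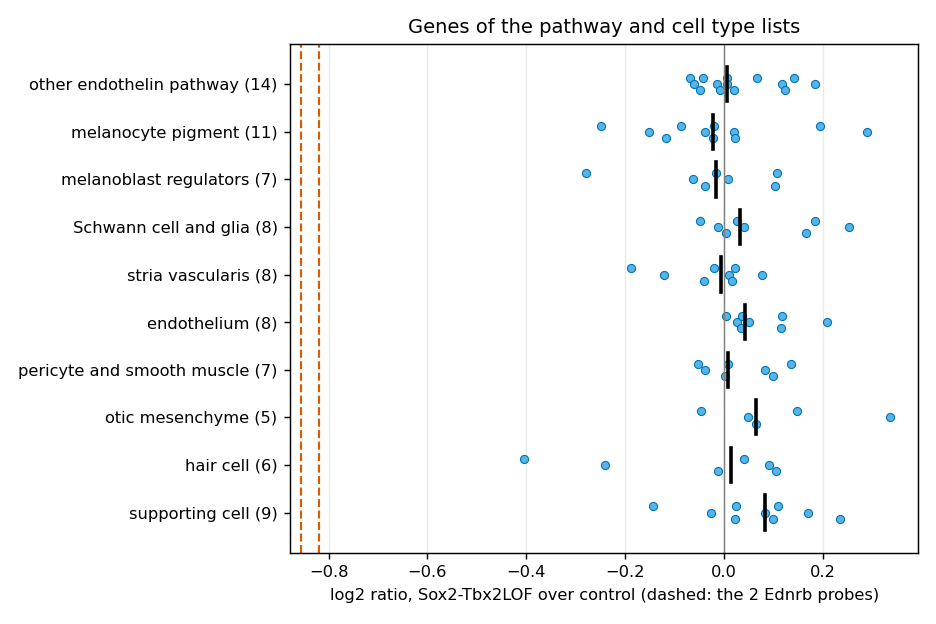
Fitted log2 ratio of Sox2-Tbx2LOF over control (x axis) of each tested gene (points) in the 10 lists (rows, number tested in parentheses), with the list median as a black bar. The dashed lines stand at the means of the 2 Ednrb probes, -0.82 and -0.86, and every gene of the lists lies to the right of them. Ednrb was chosen for its lower level, and only 31 of all 18226 tested genes were called lower. No contrast between Ednrb and the lists is therefore read from their position.

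Among 18225 other genes, those whose log2 ratios on the 4 arrays came closest to the mean of the Ednrb probes, by the root mean square difference over the arrays, were Slc6a14 at a difference of 0.15, Corin at 0.17, 1600029I14Rik at 0.18, Gm35208 at 0.18 and Asic4 at 0.20. Ednrb was at -0.72, -0.68, -1.06 and -0.89 by this mean. Slc6a14, an amino acid transporter, was at -0.90, -0.47, -1.06 and -0.75. Corin, a serine protease that activates natriuretic peptides, was at -0.75, -0.90, -0.87 and -1.07, and Asic4, of the acid-sensing ion channel family, at -0.89, -1.01, -0.93 and -0.95. The measure takes size and order together, so that closeness to Ednrb fixes the direction of these genes. None of them belongs to the lists of melanocytes or endothelin signalling. No tested gene of those lists had a log2 ratio below -0.28, so size alone kept them out, and nothing is read from their absence.

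Levels were also compared between the sexes, a contrast that the choice of genes did not use. On the first Ednrb probe the mean log2 level of both channels was 10.90 in female and 10.54 in male pools, a male minus female difference of -0.36. On the second probe it was 13.62 and 13.81, a difference of 0.19 in the opposite direction. Neither passed the test (limma, adjusted p = 0.625 and 0.694), and the 2 probes thus gave no common sex difference. The other tested probes of the set differed by 0.13 or less between the sexes, with adjusted p-values in limma from 0.694 for Ednra to 0.996 for Kit, where 0.0463% of all tested probes had an adjusted p under 0.05. A genotype effect that differed between the sexes was found for none of the set, nor for any of the 28104 tested probes (0%), of which 2.01% had an unadjusted p under 0.05 in limma. The first Ednrb probe was among that 2.01% (limma, unadjusted p = 0.0379). Pools of each sex filled 2 arrays, so that small differences were not detectable.

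Promoter sequences of RefSeq (GRCm38.p6) were found for 9 of the 10 genes. They are shown for Ednrb, whose level was lower after loss of a T-box factor, and for Dct and Tyrp1, the melanocyte enzymes read beside it, as the 250 bases before the annotated start, 5′ to 3′. Capitals mark matches on either strand to the T-box motif GGTGTGA and to CATGTG, an E-box bound by MITF, and the motifs did not overlap each other.

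Ednrb promoter, chr14:103843702-103843951, minus strand: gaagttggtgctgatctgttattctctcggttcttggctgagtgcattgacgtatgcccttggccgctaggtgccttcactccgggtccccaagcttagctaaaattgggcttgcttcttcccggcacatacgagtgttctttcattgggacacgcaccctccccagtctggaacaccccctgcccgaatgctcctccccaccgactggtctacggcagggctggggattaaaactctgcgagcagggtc

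Dct promoter, chr14:118052247-118052496, minus strand: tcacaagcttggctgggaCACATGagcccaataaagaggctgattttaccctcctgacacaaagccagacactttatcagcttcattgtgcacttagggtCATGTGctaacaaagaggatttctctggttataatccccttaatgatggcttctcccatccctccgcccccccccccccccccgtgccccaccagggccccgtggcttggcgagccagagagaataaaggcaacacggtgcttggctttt

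Tyrp1 promoter, chr4:80833963-80834212, plus strand: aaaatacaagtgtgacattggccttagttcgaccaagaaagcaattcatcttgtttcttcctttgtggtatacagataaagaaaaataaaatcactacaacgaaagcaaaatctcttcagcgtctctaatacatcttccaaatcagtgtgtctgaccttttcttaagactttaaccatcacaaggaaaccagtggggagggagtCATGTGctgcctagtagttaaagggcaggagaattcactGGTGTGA

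The Dct window held CATGTG or its reverse complement 2 times, and the Tyrp1 window held CATGTG and GGTGTGA once each. Among 32851 such windows of all genes, 12.3% held the first motif and 3.33% the second. The Ednrb window held neither, which says only that these letters are not in this stretch. Of the 15 windows of the 9 genes, 2 held the T-box motif, 1 of Tyrp1 and 1 of Mitf.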

How the data were processed

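Pooled RNA of the organ of Corti was measured on 4 dual-colour Agilent arrays. The deposited scanner files, which per the submitters' processing notes come from Agilent Feature Extraction 10.7.3.1, hold spot and local background intensity on a linear scale, not normalized by the authors. A log10 ratio of both dyes (red over green) is deposited beside them, already corrected for background and dye by the authors' scanner software. The deposited series matrix holds signed fold changes of Sox2-Tbx2LOF over control, a ratio the authors made by steps the sources used here do not state. Its direction was taken from the scanner values, with correlations over probes between 0.917 and 0.941 and a median log2 value of 0 on every array.

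Background was corrected by normexp with an offset of 50, and ratios were normalized within arrays by loess (limma 3.58.1, R 4.3.3). Control spots and flagged spots (3.23% to 3.56%) were left out, and the remaining spots of a probe were averaged. A probe was tested if it was well above background, in over 0.5 of its spots, on 3 of 4 arrays of a genotype. No spot was saturated. Log2 ratios were tested with limma, with a dye term and Benjamini-Hochberg adjustment over 28104 probes. The fit was tested on simulated data. SD is over arrays, and "log2 level" is the channel value after loess and Aquantile scaling. Genes in lists were read by their brightest tested probe. The arrays came from 1 slide, scanned in 1 run.

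Pairing comes from the array itself, on which both pools of a number were hybridized. The sources name SAM with unpaired classes, which was not run; an unpaired limma fit was run in its place. Figures were drawn with matplotlib 3.10.9.

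The genes, the lists and the rule for named genes were chosen with earlier results of these data known. That rule took every gene of the set with every probe, Tbx2 and Sox2, list genes called or with an adjusted p under 0.05 and otherwise the lowest and highest of a list, and the 5 genes most like Ednrb. Alternatives changed the background correction, normalization, filter, dye and sex terms, pairing, values used and arrays.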

Additional observations from a re-analysis of the deposited data

Results flagged for a closer look

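Among 36 groups of 4 values, 2 had a sample that lay far from the others by Dixon's criterion, close to the 1 in 20 groups that chance gives. On the first Ednrb probe, control pool 4 was at a log2 level of 10.88 while the other control pools were at 11.19 to 11.23, and it remained above every Sox2-Tbx2LOF pool. For Sox10, the log2 ratio on array 1 was -0.10 while the other arrays were at 0.05 to 0.07.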

How the results depend on the processing

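The direction of both Ednrb probes was the same under 13 alternatives, with log2 ratios from -0.97 to -0.67 for the first and -0.94 to -0.77 for the second. The 70 called probes, 36 lower and 34 higher, became 124 (72 and 52) with the scanner software's log ratio, 277 (151 and 126) without a minimum fold, and 1 (0 and 1) with the series matrix. Leaving out 1 array gave 68 to 106 calls, 37 to 74 lower and 29 to 37 higher. The total of 106 and the 74 lower calls came without array 1, and the 37 higher calls without array 4. Without the replicate block, in the fit that did not pair the pools, 57 probes were called, 22 of them higher, and 1 of the Ednrb probes. With the series matrix 0 probes of the gene set were called, and the cause was not tested. Of the lists, the pigment and hair cell lists had 1 gene each without a minimum fold (Oca2 and Otof), and the melanoblast regulators 1 with the scanner software's log ratio (Pax3). Ratios near 0 changed sign when 1 array was left out, with ranges of -0.0581 to 0.0253 for Ednra, -0.0169 to 0.0125 for Edn3, -0.0196 to 0.0862 for Ece1, -0.0418 to 0.1216 for the first Mitf probe and -0.0195 to 0.0583 for Sox10, and so did Dct, with -0.4756 to 0.0849 and -0.4894 to 0.0459 for its 2 probes. Edn3 was also above 0 with median centring (0.0022) and with the series matrix (0.0027). None of these was called in any fit. The fits without 1 array kept the dye term, so the single array left in one dye orientation weighed as much as the 2 in the other. The changes of sign and the ranges rest on that weighting. The median log2 ratio ran from -0.0993 to 0.0355 for the pigment list and from 0.0138 to 0.1019 for the supporting cell list when 1 array was left out, and was -0.0202 for the pigment list without Gpnmb, an alternative chosen after seeing the data. Sex differences in levels passed for 11 to 13 probes and in the genotype effect for 0 under all alternatives run. The scanner software's log ratio gives no level per pool, so the sex difference of levels was not run with it. Dim probes such as Tyrp1 and Gpnmb have too little signal over background for a difference to be detectable.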
